A study of Danio rerio with 32 samples.

Results

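The hormones of the anterior pituitary were read through 9 genes: gh1, prl, smtla, smtlb, pomca, tshba, cga, lhb and fshb. They were picked by name, and each of the 9 listed names was present once in a deposited table of 32520 genes. The names were picked with earlier results of these libraries known, comparisons between the brain groups and between brain and eye among them. Their changes and p-values are therefore given as a description of these libraries, not as independent evidence. The genes were read in 15 brain libraries, with 16 eye libraries as a background level.

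Wild-type zebrafish embryos were exposed from 0.75 h to 120 h after fertilization to the solvent alone (0.1% DMSO) or to 12.5 µM PFNA in it (perfluorononanoic acid, a perfluorinated surfactant), and their brains and eyes were sequenced. LD embryos had 14 h of light and 10 h of dark a day, and DD embryos had 24 h of dark. The brain groups were LD DMSO (n = 4), LD PFNA (n = 4), DD DMSO (n = 4) and DD PFNA (n = 3 here, of 4), and the eye groups were the same 4 conditions with n = 4 each. The solvent was shared by treated and control embryos, and the labels do not say whether the pituitary stayed with a dissected brain, how many embryos made a library, or whether replicates were separate clutches. The p-values therefore measure the spread between these libraries, which may be technical.

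The anterior pituitary, or adenohypophysis, lies under the hypothalamus and releases peptide hormones into the blood. Growth hormone, prolactin and the fish-specific somatolactins form a family of related proteins, made by somatotrophs, lactotrophs and somatolactotrophs. Proopiomelanocortin is cut into corticotropin and melanocyte-stimulating hormone, while thyrotropin, luteinizing hormone and follicle-stimulating hormone each pair a common alpha subunit with a beta subunit of their own.

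Values are FPKM (fragments per kilobase of gene length, scaled for library size) as the authors deposited them. Whole fragments recovered from them gave 8.83 to 16.13 M (mega) fragments in a library. Of 8 brain marker genes 0 were at 0 in any group, and their summed level was 936 to 1329 FPKM in the 15 brain libraries. Summed photoreceptor and other eye markers were 3.96 to 34.5 FPKM in these brains. The library labelled brain DD PFNA replicate 3 stood apart, with 6303 FPKM of eye markers, where eye libraries began at 6559, and 6399 FPKM of lens markers, inside the eye range of 3896 to 10405. It was left out, and results are given with it where that changes a call.

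Growth hormone and proopiomelanocortin transcripts led the 9 genes in brains. Over the 15 libraries gh1 ran from 4.20 to 26.7 FPKM with a median of 13.1, and pomca from 2.54 to 40.3 with a median of 11.6. Next came prl, from 1.03 to 13.6 with a median of 4.74, and smtla, from 0 to 5.80 with a median of 3.32. The alpha subunit cga had a median of 1.74 FPKM (0.167 to 2.99). The median of smtlb was 1.21 (0.151 to 14.5), the widest span relative to its median among the 7 genes that reached 1 FPKM in at least 4 brains.

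The order of the medians held for some neighbours and not for others. FPKM is per kilobase, so levels can be set between genes. gh1 was above pomca in 13 of 15 brains, pomca above prl in 14, and prl above smtla in 12. smtla was above cga in 9 of 15 and cga above smtlb in 9, and here the order differed between groups. smtla was above cga in every LD brain and below it in every DD DMSO brain. smtlb was above cga in every LD DMSO brain and below it in most of the others.

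The 3 beta subunits of the glycoprotein hormones were near or under the eye level. tshba, the thyrotropin beta subunit, had a brain median of 0.466 FPKM and a highest value of 1.43, and reached 2.30 in an eye library. lhb, the luteinizing hormone beta subunit, ran from 0 to 0.394 FPKM in brains, under its eye median of 0.428. fshb, the follicle-stimulating hormone beta subunit, was at 0 in 9 of 15 brains and reached 0.557. All 15 brains together held 78 fragments of tshba, 32 of lhb and 33 of fshb, against 3415 of gh1 and 2686 of pomca. None of the 15 brains reached 1 FPKM for lhb or fshb, so 7 of the 9 genes passed the filter and were fitted.

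In eyes the other 6 genes were low, and brain and eye are set side by side here as a description. The highest eye value was 0.120 FPKM for smtlb, 0.283 for smtla, 0.769 for cga, 0.925 for prl, 1.08 for gh1 and 1.22 for pomca. The left-out library had 0.723 FPKM of gh1, 0.393 of pomca, 0.275 of prl and 0 of both somatolactins, so it sat at the eye level for these hormones too.

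**Figure D1:**
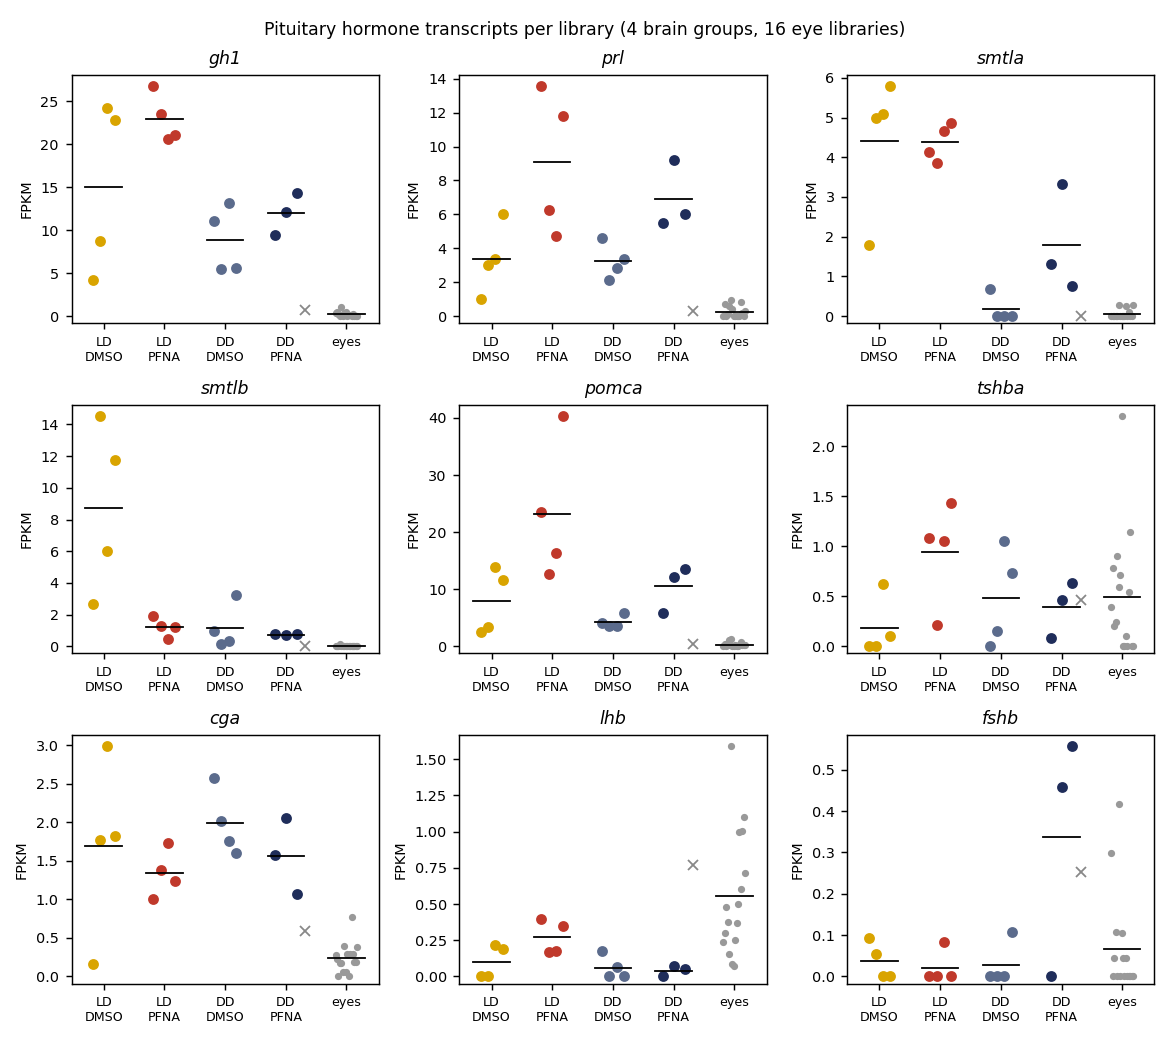
FPKM of each of the 9 hormone genes (vertical axis, linear, own scale per panel) in the 4 brain groups and in the 16 eye libraries together. Each point is a library, the line is the group mean, and the cross is brain DD PFNA replicate 3, which the means leave out; smtlb is high in LD DMSO brains, smtla is low in DD DMSO brains, and lhb is higher in eyes than in brains.

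Between brain groups, the genes that changed were the somatolactins, prl and pomca. With PFNA under LD, smtlb was called lower and prl and pomca higher, and under DD smtla was called higher. Under DD prl and pomca also lay higher with PFNA (log2 changes 0.91 and 1.08) but did not pass. No difference between the PFNA effects of DD and LD brains passed. With each of the 15 libraries left out in turn, the smtlb call stood in 15 runs. The calls of prl and pomca stood in 4 and 5 runs, and that of smtla under DD in 4. In DMSO brains both somatolactins were lower in DD than in LD. gh1, cga and tshba passed in none of these comparisons. Changes are given as log2 changes with SE on the log2(FPKM + 1) scale, which understates changes of genes near 1 FPKM, and a gene was called at a Benjamini-Hochberg adjusted p under 0.05 over all genes fitted with limma.

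Set against all genes, 3 of the 7 fitted hormone genes were called for PFNA under LD, 2 higher and 1 lower, where 7.9% of all 17216 genes were called (5.62% higher, 2.28% lower). For PFNA under DD 1 of 7 was called, as higher, against 6.62% of all genes (4.82% higher). For DD against LD in DMSO brains 2 of 7 were called, both lower, against 16.1% of all genes (9.68% lower). In PFNA brains DD against LD gave 0 of 7, where 9.63% of all genes were called. There 1 of the 7 had an unadjusted p under 0.05, and limma with voom weights on recovered fragments also called 0. For the difference between the PFNA effects of DD and LD brains 0 of 7 were called, where 0.00581% of all genes (1 gene, RF00001) passed. Of the 7, 2 had an unadjusted p under 0.05, and voom called 0. Because the genes were picked with these comparisons known, nothing about the set is read from the counts.

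Groups that did not overlap were counted apart. PFNA brains lay above all DMSO brains under DD for 3 of 7 hormone genes (smtla, pomca and prl), where 10.9% of all genes did. Under LD they lay below for 1 of 7 (smtlb), where 5.99% of all genes did. DD brains lay below LD brains for 1 of 7 with DMSO (smtla) and for 2 of 7 with PFNA (smtla and gh1), where 8.97% and 16.3% of all genes did. The median log2 change of the 7 genes was 0.70 for PFNA under LD and 0.48 under DD, against 0.01 for all genes in both. For DD against LD it was -0.51 in DMSO and -0.45 in PFNA brains, against 0.00 for all genes in both. The medians of 0.70 and -0.45 are the values of tshba, which passed the filter mainly through LD PFNA brains. No shift of the set is read from these medians. These comparisons share libraries, so their values are not separate evidence, and in bulk tissue fewer hormone cells and less transcript per cell cannot be told apart.

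**Figure D2:**
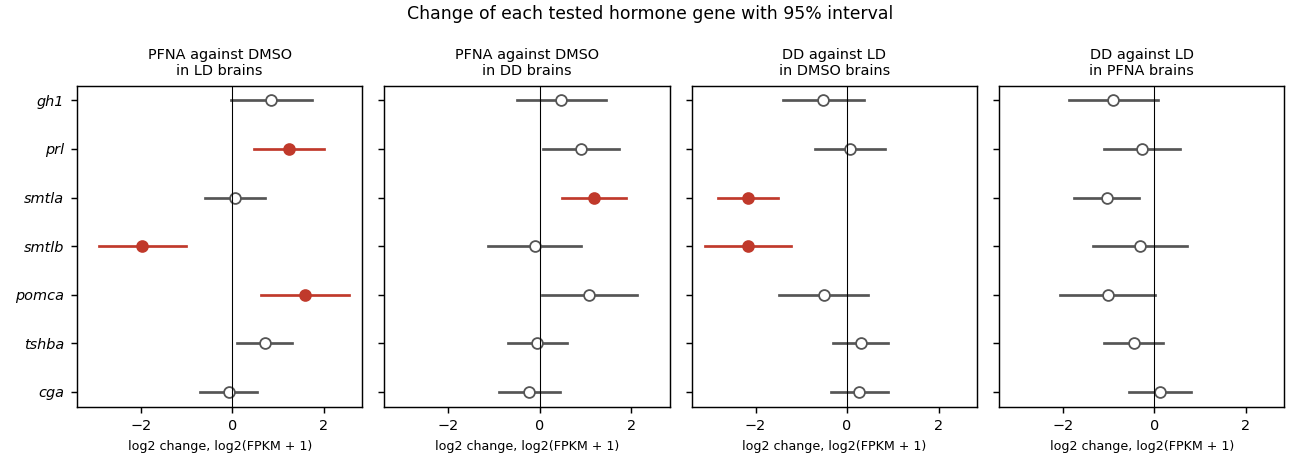
Log2 change on the log2(FPKM + 1) scale (horizontal axis) with its 95% interval for the 7 fitted hormone genes in the 4 pairwise comparisons of brain groups. Filled red points passed an adjusted p of 0.05 over 17216 genes: prl, pomca and smtlb for PFNA under LD, smtla for PFNA under DD, and both somatolactins for DD against LD in DMSO brains.

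smtlb had its highest group mean in LD DMSO brains, and smtla had similar means in both LD groups. smtlb (ENSDARG00000017251; chromosome 10, 39314578 to 39321367, minus strand, gene length 857 bases) encodes somatolactin beta. In LD DMSO brains it stood at 2.65, 14.5, 5.99 and 11.8 FPKM. The LD PFNA brains had 1.90, 1.31, 0.466 and 1.21 FPKM, and every one of these lay under the lowest LD DMSO brain. Under DD, smtlb was 0.947, 0.151, 0.306 and 3.22 FPKM with DMSO, and 0.744, 0.680 and 0.774 with PFNA. So LD DMSO brains were the group with high smtlb, and of the other libraries DD DMSO replicate 4 alone entered its range. The fragments behind these groups were 342 in LD DMSO, 55 in LD PFNA, 42 in DD DMSO and 25 in DD PFNA.

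The mean of smtlb fell from 8.73 ± 5.39 FPKM (SD, n = 4) in LD DMSO to 1.22 ± 0.588 (n = 4) in LD PFNA brains, which is 7.16-fold lower. On the log2(FPKM + 1) scale the change was -1.97 ± 0.44 (SE; limma, adjusted p = 0.0142 over 17216 genes). Between photoperiods, DD DMSO brains averaged 1.16 ± 1.42 FPKM, 7.55-fold under LD DMSO, with a log2 change of -2.17 ± 0.44 (adjusted p = 0.00472). Without DD DMSO replicate 4 that group's mean was 0.468 FPKM and the ratio 18.7-fold. Both calls stood when any of the 15 libraries was left out in turn, with adjusted p at most 0.0468 and 0.0187. With PFNA under DD the log2 change of smtlb was -0.11 ± 0.48 (adjusted p = 0.917, 95% interval -1.14 to 0.91). The PFNA effect was 1.85 ± 0.65 higher under DD than under LD, but in limma this difference had an adjusted p of 0.534 over all genes and did not pass.

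smtla (ENSDARG00000038191; chromosome 18, 48168755 to 48178125, plus strand, gene length 702 bases) encodes somatolactin alpha, a hormone known in medaka for its effect on skin pigment cells. In LD DMSO brains it was at 1.79, 4.98, 5.09 and 5.80 FPKM. The LD PFNA brains had 4.12, 3.86, 4.66 and 4.87 FPKM, within the LD DMSO range. In DD DMSO brains it was detected in replicate 1 at 0.694 FPKM, from 6 fragments, and was at 0 fragments in replicates 2, 3 and 4. In any of the 15 brains, those 3 among them, a count of 0 allows no more than 0.440 FPKM (3 fragments, counting error only). DD PFNA brains had 1.31, 3.32 and 0.756 FPKM, from 45 fragments in all, and lay between the DD DMSO and the LD groups.

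In DMSO brains the smtla mean was 25.5-fold lower under DD than under LD, 0.173 ± 0.347 FPKM (n = 4) against 4.41 ± 1.79 (n = 4). The DD mean rests on the 6 fragments of replicate 1, and without that library there is no finite ratio. The log2 change was -2.17 ± 0.31 (adjusted p = 0.000606), the groups did not overlap, and the call stood when each of the 15 libraries was left out in turn (adjusted p at most 0.00293). With PFNA, DD brains averaged 1.80 ± 1.35 FPKM (n = 3) and LD brains 4.38 ± 0.465 (n = 4), a log2 change of -1.05 ± 0.33 that missed the threshold (adjusted p = 0.0604), again without overlap. It passed without DD DMSO replicate 1, DD PFNA replicate 2 or LD DMSO replicate 1 (adjusted p = 0.0482, 0.0315 and 0.0288). With brain DD PFNA replicate 3 included it also passed (log2 change -1.39 ± 0.37, adjusted p = 0.0359). That library has an eye profile and 0 FPKM of smtla, so adding it had to lower the DD PFNA mean, and the pass adds no support.

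Some globin transcripts were also lower in DD. Of 6 blood markers 5 were fitted (alas2 was at 0 in all 15 brains). For DD against LD in DMSO brains 2 of 5 were called, both lower, where 16.1% of all genes were called (9.68% lower). They were the globins hbae3 (log2 change -1.30 ± 0.31, adjusted p = 0.0125) and hbbe2 (-1.11 ± 0.35, adjusted p = 0.0423). hbbe2 passed the filter through the LD groups. It reached 1 FPKM in 3 LD DMSO, 4 LD PFNA, 0 DD DMSO and 1 DD PFNA brains, with 14 fragments over the DD DMSO group. Its call therefore describes the photoperiod that let it pass. The other globins listed, singled out here, did not pass: hbae1.1 (-0.69 ± 0.39, adjusted p = 0.265) and hbbe1.1 (-0.22 ± 0.63, adjusted p = 0.852). In PFNA brains 1 of 5 was called, hbae3 (-1.92 ± 0.34, adjusted p = 0.00397), where 9.63% of all genes were. The 6 markers summed to 9.94 to 15.8 FPKM in DD DMSO and 17.9 to 36.5 in LD DMSO brains. In PFNA brains the sums were 8.21 to 17.4 in DD and 27.2 to 62.0 in LD. The sums of DD and LD did not overlap with either treatment, and their part in the somatolactin differences was not tested.

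smtla was higher with PFNA in DD brains, and in LD brains no change was detectable. Under DD the log2 change was 1.19 ± 0.33 (adjusted p = 0.0463), with every PFNA library above every DMSO library. The ratio of means, 10.4, rests on the same 6 fragments in the control group and was 5.96 without DD PFNA replicate 2. The call was lost in 11 of 15 runs that left a library out, with a log2 change of 0.82 and adjusted p = 0.210 without DD PFNA replicate 2. It was also lost with brain DD PFNA replicate 3 included (0.84 ± 0.37, adjusted p = 0.239). Adding that library, at 0 FPKM of smtla, had to lower the DD PFNA mean, so this loss says nothing about the call. The LD change was 0.07 ± 0.31 (adjusted p = 0.924, 95% interval -0.59 to 0.72). The difference between the PFNA effects was 1.12 ± 0.45 in limma, with an adjusted p of 0.611 over all genes, and did not pass.

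gh1 (ENSDARG00000038185; chromosome 3, 22327738 to 22332913, plus strand, gene length 1197 bases) encodes growth hormone. LD DMSO brains had 4.20, 8.68, 24.2 and 22.8 FPKM, with replicates 1 and 2 far under the other two. The LD PFNA brains were close together at 26.7, 23.5, 20.6 and 21.0 FPKM. DD DMSO brains had 11.1, 5.46, 13.1 and 5.56 FPKM, and DD PFNA brains had 9.47, 12.1 and 14.4. None of the gh1 changes passed the threshold.

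The means of gh1 were 14.97 ± 10.04 FPKM in LD DMSO, 22.9 ± 2.83 in LD PFNA, 8.80 ± 3.90 in DD DMSO and 12.0 ± 2.44 in DD PFNA brains. With PFNA the log2 change was 0.85 ± 0.42 under LD (adjusted p = 0.241) and 0.48 ± 0.45 under DD (adjusted p = 0.586). DD PFNA brains lay under every LD PFNA brain, with a log2 change of -0.89 ± 0.45 (adjusted p = 0.237). In a fit of these 2 groups alone the adjusted p was 0.00562.

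prl (ENSDARG00000037946; chromosome 3, 32341917 to 32345900, plus strand, gene length 1399 bases) encodes prolactin, which in fish is known for its part in salt balance in fresh water. LD DMSO brains had 1.03, 3.01, 3.35 and 6.01 FPKM, and LD PFNA brains 13.6, 6.24, 4.74 and 11.8. The groups overlapped through LD DMSO replicate 4 and LD PFNA replicate 3. DD DMSO brains had 4.58, 2.13, 2.81 and 3.37 FPKM, and the DD PFNA brains, at 5.47, 9.23 and 6.02, lay above each of them.

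The prl mean rose from 3.35 ± 2.05 to 9.09 ± 4.27 FPKM with PFNA under LD, a 2.71-fold rise and a log2 change of 1.24 ± 0.36 (adjusted p = 0.0473). The call was lost in 11 of 15 runs with a library left out (adjusted p up to 0.141) and with brain DD PFNA replicate 3 included (adjusted p = 0.299). That library is in neither LD group, so the log2 change stayed at 1.24 and the SE alone rose, to 0.54. Under DD the means were 3.22 ± 1.04 and 6.91 ± 2.03 FPKM, and the log2 change of 0.91 ± 0.39 missed the threshold (adjusted p = 0.189). For DD against LD the log2 change of prl was 0.06 ± 0.36 in DMSO brains and -0.28 ± 0.39 in PFNA brains (adjusted p = 0.932 and 0.724).

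pomca (ENSDARG00000043135; chromosome 17, 33226955 to 33230039, plus strand, gene length 1224 bases) encodes proopiomelanocortin, made in corticotrophs and melanotrophs and also in neurons of the hypothalamus. Its LD DMSO values were 2.54, 3.36, 13.9 and 11.6 FPKM, with the same low pair as gh1. The LD PFNA brains had 23.6, 12.7, 16.4 and 40.3 FPKM, and 1 DMSO brain lay above the lowest of them. DD DMSO brains were close together at 4.11, 3.49, 3.50 and 5.77 FPKM. DD PFNA brains had 5.79, 12.1 and 13.6 FPKM, the lowest of them just above the highest DMSO library.

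Under LD the pomca mean rose 2.96-fold with PFNA, from 7.87 ± 5.76 to 23.2 ± 12.2 FPKM, a log2 change of 1.59 ± 0.45 (adjusted p = 0.0438). The call was lost in 10 of 15 runs with a library left out (adjusted p up to 0.132), among them those without LD DMSO replicate 1 or 2 (log2 change 1.24 and 1.34). It was also lost with brain DD PFNA replicate 3 included (adjusted p = 0.254). That library is in neither LD group, so the log2 change stayed at 1.59 and the SE alone rose, to 0.65. Under DD the means were 4.22 ± 1.08 and 10.5 ± 4.14 FPKM, and the log2 change of 1.08 ± 0.49 did not pass (adjusted p = 0.212). The difference between the PFNA effects of DD and LD brains was -0.51 ± 0.66 (95% interval -1.93 to 0.91, adjusted p = 0.959).

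cga (ENSDARG00000040479; chromosome 17, 49439219 to 49443399, minus strand, gene length 1794 bases) encodes the alpha subunit shared by thyrotropin and the gonadotropins. LD DMSO brains had 0.167, 1.78, 2.99 and 1.82 FPKM, and LD PFNA brains 1.01, 1.38, 1.74 and 1.24. DD DMSO brains had 2.58, 2.02, 1.75 and 1.60 FPKM, and DD PFNA brains 1.58, 2.06 and 1.07. The 4 groups overlapped, and each of the 4 pairwise log2 changes was between -0.22 and 0.27 with adjusted p from 0.576 to 0.904. So no change of cga was detectable at this depth, with 5 to 72 fragments in a library.

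tshba (ENSDARG00000033726; chromosome 6, 49081141 to 49085296, plus strand, gene length 833 bases) passed the filter with exactly 4 brains at 1 FPKM, of which 3 were LD PFNA and 1 was DD DMSO. LD DMSO brains had 0, 0, 0.625 and 0.106 FPKM and LD PFNA brains 1.09, 0.212, 1.05 and 1.43, from 39 fragments in the PFNA group. The log2 change of 0.70 ± 0.28 did not pass (adjusted p = 0.150). At these counts no change of tshba was detectable, and eye libraries held as much of it.

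lhb (ENSDARG00000099363; chromosome 13, 2523032 to 2526033, plus strand, gene length 1378 bases) and fshb (ENSDARG00000010841; chromosome 7, 32605705 to 32612560, plus strand, gene length 1907 bases) were not fitted. lhb was detected in each LD PFNA brain, at 0.394, 0.171, 0.174 and 0.346 FPKM, and also in other groups. DMSO brains had 0 to 0.216 FPKM of it, and 5 of the 15 brains were at 0 fragments. fshb was detected in 2 of the 3 DD PFNA brains, at 0.458 and 0.557 FPKM, from 9 and 16 fragments, and was at 0.107 or less in the other 13 brains. Eye libraries reached 1.59 FPKM of lhb and 0.417 of fshb, and the brain values are given as detections, with no test.

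The share of somatolactin in the summed hormone transcripts set the LD DMSO brains apart. The 9 genes summed to 12.5, 36.4, 56.4 and 60.2 FPKM in LD DMSO brains and to 72.4, 49.4, 49.8 and 82.2 in LD PFNA brains. In DD DMSO brains the sums were 24.1, 13.4, 22.6 and 20.4 FPKM, and in DD PFNA brains 24.4, 40.4 and 37.8. Eye libraries summed to between 0.477 and 5.09 FPKM, and the left-out library to 3.46. The DD sums were lower than the LD sums apart from 2 LD DMSO libraries that lay within or under the DD range.

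Somatolactins took 35.6%, 53.6%, 19.7% and 29.2% of the summed FPKM in the LD DMSO brains. They took 7.38% to 10.5% in LD PFNA brains, 1.13% to 15.8% in DD DMSO brains and 4.05% to 9.89% in DD PFNA brains. Every LD DMSO library was thus above each of the other 11 in this share. In summed FPKM of both somatolactins the groups overlapped. LD DMSO replicate 1, at 4.44 FPKM, lay under the LD PFNA brains (5.13 to 6.07). A share also falls when the other hormone genes rise, and the pomca and prl means were higher in LD PFNA than in LD DMSO brains. The share is a ratio within a library and does not separate a change in the number of cells of a type from a change in transcript per cell. Per gh1 transcript, smtlb was at 0.248 to 1.67 in LD DMSO brains and at 0.0227 to 0.071 in LD PFNA brains. The ratio of pomca to gh1 was 0.387 to 0.605 in LD DMSO and 0.542 to 1.92 in LD PFNA brains, and these ranges overlapped.

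LD DMSO replicate 1 was the lowest of its group for gh1, prl, smtla, smtlb, pomca and cga, with 12.5 FPKM over the 9 genes. Its somatolactin share of 35.6% was inside the range of the other 3. The LD DMSO group also varied in tissue markers from outside the brain. Summed muscle markers were 56.2 to 432 FPKM there and 28.8 to 103 in LD PFNA brains, cartilage markers 42.2 to 476 and 37.8 to 224, and epidermis markers 46.0 to 704 and 32.9 to 250. The part of these markers in the hormone differences was not tested.

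**Figure D3:**
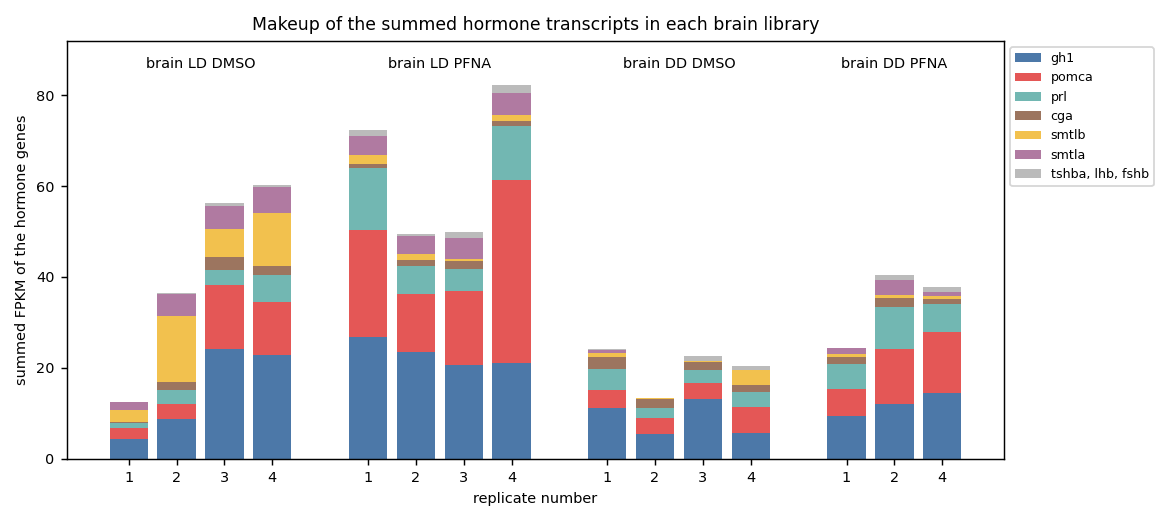
Stacked FPKM of the hormone genes (vertical axis, from 0) in each of the 15 brain libraries, by group and replicate number; tshba, lhb and fshb are stacked as 1 grey part. The yellow and purple parts, smtlb and smtla, make up 19.7% to 53.6% of the sum in LD DMSO brains and 7.38% to 10.5% in LD PFNA brains. In FPKM these parts together are smaller in LD DMSO replicate 1 (4.44) than in the LD PFNA brains (5.13 to 6.07).

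Genes that surround the hormones were read from lists. Of 22 listed transcription factors of the adenohypophysis 19 were in the table and 15 were fitted. For PFNA 1 of 15 was called under LD and 1 under DD, where 7.9% and 6.62% of all genes were. For DD against LD 1 was called in DMSO brains and 0 in PFNA brains, where 16.1% and 9.63% of all genes were. pou1f1, the factor of the growth hormone, prolactin and thyrotropin lineages, was listed at 0 fragments in all 32 libraries, so it gives no reading of cell number. tbx19, a corticotroph factor, averaged 0.319, 0.525, 0.119 and 0.691 FPKM in LD DMSO, LD PFNA, DD DMSO and DD PFNA brains and was not fitted.

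Of the 15 fitted factors, isl1, a factor of several neuron and pituitary cell types, was lower with PFNA under LD (14.4 ± 2.10 to 10.3 ± 0.950 FPKM, log2 change -0.44 ± 0.13, adjusted p = 0.0487). pitx1, a factor of the early pituitary and of jaw and limb tissue, was higher in DD DMSO than in LD DMSO brains (1.07 ± 0.31, adjusted p = 0.0295) and lower with PFNA under DD (-1.19 ± 0.33, adjusted p = 0.0466). Its DD DMSO values ran from 1.104 to 7.36 FPKM, and no other group exceeded 1.31. It passed the filter through DD DMSO, where 4 of 4 libraries reached 1 FPKM against 2 in LD DMSO and 0 in the PFNA groups, so both calls describe the group that let it pass. DD DMSO was also the group with pancreas transcripts, with a summed level of 38.9 to 259 FPKM over 13 markers against 6.06 to 22.0 in the other brain groups. This is the group in which smtla was lowest; the part of carried-over tissue in that result was not tested. The median log2 change of the 15 factors was between -0.17 and -0.04 in the 4 pairwise comparisons.

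Of the hypothalamic factors that drive or restrain the pituitary, 25 were listed, 23 were in the table and 14 were fitted. For PFNA limma called 0 of 14 under LD and 0 of 14 under DD, where 7.9% and 6.62% of all genes were called. An unadjusted p under 0.05 was found for 0 and 1 of them, and voom called 0 under both. crhb, the releasing factor for corticotropin, averaged 8.34 ± 1.92 FPKM in LD DMSO and 9.81 ± 1.14 in LD PFNA brains (log2 change 0.23 ± 0.14, adjusted p = 0.370). trh, thyrotropin-releasing hormone, averaged 12.5 ± 2.46 and 14.3 ± 1.87 (0.19 ± 0.15, adjusted p = 0.499). The 1 factor at an unadjusted p under 0.05 was avp, which averaged 5.57 ± 0.788 FPKM in DD DMSO and 2.90 ± 0.139 in DD PFNA brains, without overlap. Its log2 change of -0.75 ± 0.23 did not pass (limma, adjusted p = 0.0704). crhb, trh and avp were singled out after their values were seen.

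For DD against LD limma called 2 of the 14 hypothalamic factors in DMSO brains and 1 in PFNA brains. Over all genes 16.1% and 9.63% were called. The 2 in DMSO brains were the genes for melanin-concentrating hormone, a hypothalamic peptide known in fish for paling the skin. Both were higher in DD than in LD. pmchl averaged 2.63 ± 0.718 FPKM in LD DMSO and 15.1 ± 8.36 in DD DMSO brains (log2 change 2.04 ± 0.33, adjusted p = 0.00111). pmch averaged 1.53 ± 1.08 and 8.14 ± 3.84 FPKM (1.87 ± 0.39, adjusted p = 0.00571). The groups did not overlap for either gene, and the direction was opposite to that of both somatolactins in the same brains. In PFNA brains pmchl rose from 3.57 ± 1.42 to 11.8 ± 5.26 FPKM (1.44 ± 0.35, adjusted p = 0.0203), and the change of pmch, 1.003 ± 0.425, did not pass (adjusted p = 0.160). The pituitary receptors of the releasing factors gave 0 limma calls among 18 fitted genes in each of the 5 comparisons. Over all genes 0.00581% to 16.1% were called. Of the 18 genes, 0 to 4 had an unadjusted p under 0.05, and voom called 0.

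Some genes for cutting, amidating and packing peptide hormones rose with PFNA. Of 16 listed names 15 were in the table, and 16 entries were fitted because scg5 was matched more than once. Of these 16 entries, 4 rose and 0 fell under LD, and 6 rose and 0 fell under DD. Over all genes 5.62% and 4.82% were called higher. vgf, a granule protein of neurons and endocrine cells, rose 3.08-fold under LD, from 29.6 ± 1.46 to 91.1 ± 9.15 FPKM (log2 change 1.59 ± 0.15, adjusted p = 1.93e-05). Under DD it rose from 39.9 ± 10.3 to 90.7 ± 7.89 FPKM (1.2 ± 0.16, adjusted p = 0.000612). scg2b, a secretogranin, rose by 0.93 ± 0.12 under LD and 0.72 ± 0.13 under DD, and pcsk1, a prohormone convertase that cuts proopiomelanocortin, by 0.82 ± 0.14 and 0.80 ± 0.15. At 112 ± 9.68 and 68.7 ± 9.58 FPKM in LD DMSO brains, scg2b and pcsk1 stood far above each hormone gene, and neurons use them too. Between photoperiods, 2 of 16 rose and 1 fell in DMSO brains, and 1 rose in PFNA brains, where 16.1% and 9.63% of all genes were called.

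Genes that answer to glucocorticoid or thyroid hormone, the far end of the pomca and tshba axes, were read next. Of 20 listed names 19 were in the table and 16 were fitted; with PFNA 5 rose and 0 fell under LD, and 5 rose and 0 fell under DD, where 5.62% and 4.82% of all genes were called higher. klf9, a target of both hormones, rose from 28.3 ± 5.53 to 87.1 ± 16.4 FPKM under LD (log2 change 1.59 ± 0.18, adjusted p = 7.90e-05) and from 64.2 ± 15.6 to 139 ± 16.5 under DD (1.12 ± 0.19, adjusted p = 0.00294). socs2, a feedback inhibitor of growth hormone signalling, rose by 0.99 ± 0.13 under LD (adjusted p = 0.000316) and 1.49 ± 0.14 under DD (adjusted p = 3.71e-05). per1a, a clock gene, rose by 0.94 ± 0.19 under LD and 1.195 ± 0.200 under DD. In eyes the summed level of the list was higher with PFNA too. It was 411 to 543 FPKM in LD DMSO and 852 to 1016 in LD PFNA eyes. Under DD it was 451 to 554 FPKM in DMSO and 979 to 1151 in PFNA eyes. A link between this list and the pituitary hormone genes was not tested.

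Between photoperiods 5 of the 16 were called in DMSO brains and 5 in PFNA brains, where 16.1% and 9.63% of all genes were. In DMSO brains 3 rose in DD (klf9, thrb and thraa, the last pair being thyroid hormone receptors) and 2 fell (tsc22d3 and nr3c1). tsc22d3, a glucocorticoid-induced gene, fell from 16.9 ± 6.74 to 5.78 ± 1.94 FPKM (log2 change -1.38 ± 0.34, adjusted p = 0.0138). nr3c1, the glucocorticoid receptor, fell from 3.87 ± 0.636 to 2.60 ± 0.509 (-0.44 ± 0.14, adjusted p = 0.0434). In PFNA brains 3 rose, led by thraa at 0.90 ± 0.15 (adjusted p = 0.00306), and 2 fell, with nr3c1 at -0.85 ± 0.15 (adjusted p = 0.00377). Of the receptors for the pituitary hormones 7 were fitted. For PFNA under DD 1 of 7 was called, where 6.62% of all genes were, so nothing about the list is read from it. It was mc5rb, a melanocortin receptor, which rose from 1.05 ± 0.494 to 2.53 ± 0.356 FPKM (0.81 ± 0.21, adjusted p = 0.0308). PFNA under LD gave 0 of 7, where 7.9% of all genes were called. DD against LD gave 0 of 7 with DMSO and with PFNA, where 16.1% and 9.63% were.

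**Figure D4:**
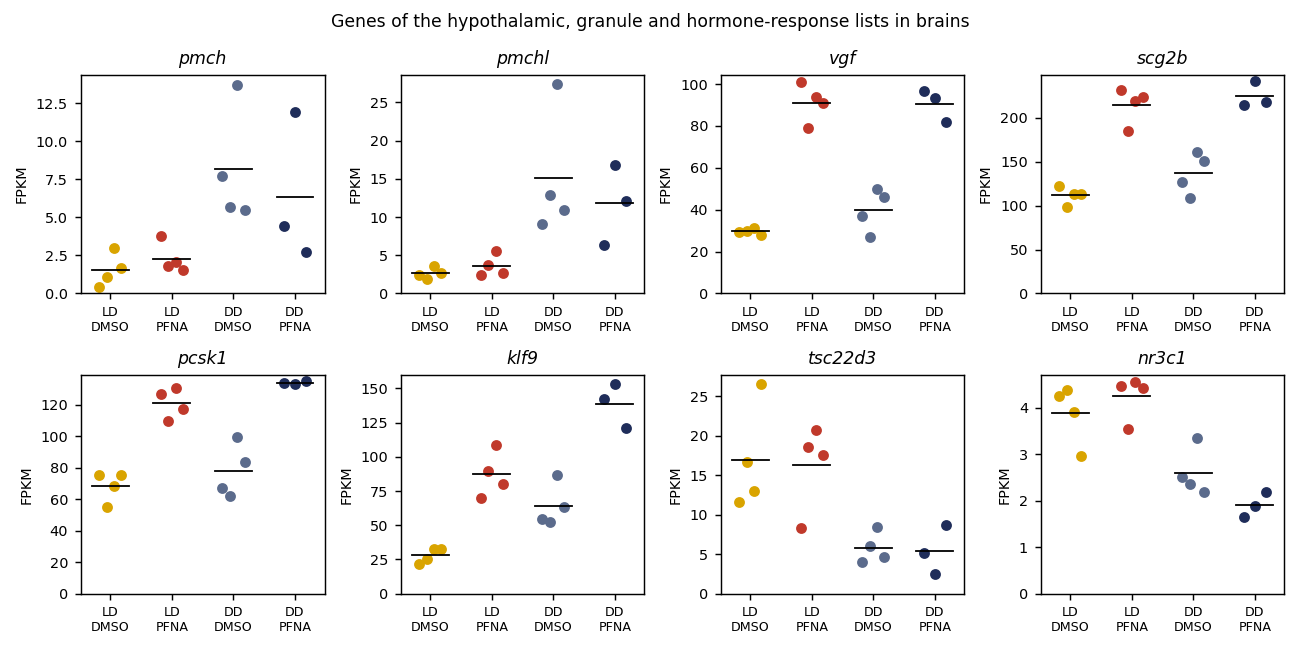
FPKM per brain library (vertical axis, linear, own scale per panel) of pmch, pmchl, vgf, scg2b, pcsk1, klf9, tsc22d3 and nr3c1 in the 4 brain groups, with the group mean as a line. The melanin-concentrating hormone genes are high in DD, vgf, scg2b and pcsk1 are high with PFNA under both photoperiods, and tsc22d3 and nr3c1 are low in DD.

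Relatives of the hormone genes were faint. pomcb, the second proopiomelanocortin gene, was at 0 fragments in the 16 eye libraries and at 0 to 1.103 FPKM in brains, with means of 0.239 ± 0.177 in LD DMSO and 0.792 ± 0.309 in LD PFNA brains. prl2 was at 0 to 0.243 FPKM in brains and at 0.714 to 1.07 in LD DMSO eyes. gpha2 was at 0 fragments in the brains used, gphb5 reached 0.727 FPKM in a DD DMSO brain, and tshbb was not matched by name. None passed the filter.

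Within groups the 7 fitted genes tended to be high or low in the same libraries. On deviations of log2(FPKM + 1) from the group means, Pearson's r over 15 libraries was positive for 20 of 21 pairs, with a median of 0.45 and a range of -0.02 to 0.81. The highest were smtla with cga at 0.81, prl with pomca at 0.70 and smtla with prl at 0.68. smtlb went with prl at 0.63 and with gh1 at 0.23. LD DMSO replicate 1 was the lowest of its group for gh1, prl, smtla, smtlb, pomca and cga, and r was not computed without it. A single low library can therefore carry part of these values. Pairs of other genes were not read in this way, so the values are not shown to be particular to the hormone genes. These are descriptions over libraries that share tissue, dissection and depth scaling.

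The genes outside the set most like the mean of the 7, again on deviations, were scn1ba (r = 0.89), BX890539.1 (0.83), h1f0 (0.82), BX005254.1 (0.80) and irs2a (0.80), out of 17209. Next came si_ch73-299h12.9, ppp2ca, cbsb, zgc_152863 and ccdc14, at 0.79 down to 0.75. scn1ba, a sodium channel subunit, averaged 9.89 FPKM in brains and 3.86 in eyes. The pituitary factors fitted ran from -0.37, rank 15953 of 17216, to 0.45, rank 681, for nr5a1b, a gonadotroph factor. The releasing and inhibiting factors ran from -0.38 for crhb, rank 16028, to 0.60 for pmch, rank 126. Both lists held values of both signs, so neither list as a whole went with the hormone genes.

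**Figure D5:**
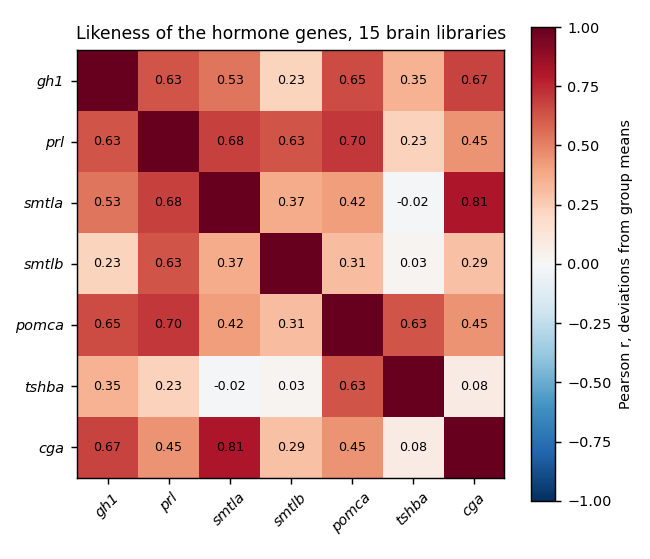
Pearson's r between each pair of the 7 fitted hormone genes over 15 brain libraries, on deviations of log2(FPKM + 1) from the group means; the colour runs from -1 (blue) to 1 (red) and the value stands in each cell. The cells of smtla with cga (0.81) and of prl with pomca (0.70) are the reddest, and tshba has the palest row.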

How the data were processed

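Brains and eyes of 32 zebrafish libraries were read by RNA sequencing. The authors deposited 1 table of FPKM values for 32520 genes, with gene length, position and type. HISAT2 (2.0.5) and featureCounts (1.5.0-p3) are listed in the submitters' processing notes. Which step each did, the genome build, the annotation and the strandedness of the libraries were not given in the sources used here. Positions therefore carry no build, and values of overlapping, antisense or closely related genes are uncertain. FPKM times gene length came out as whole multiples of 1 step for 100% of values (tolerance 0.05), which gave fragments per gene and 8.83 to 16.13 M (mega) fragments per library. Such floors as are given cover counting error only. The intervals given for changes come from the SE of the limma fit, and so from the spread between libraries. The 2 pooled columns were not used. Series title and labels name PFNA, while the design text names PFHxS, and the labels were followed.

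The members, lists and rules were chosen with earlier results of these data known. limma 3.58.1 (R 4.3.3; lmFit, eBayes with trend) was fitted to log2(FPKM + 1) of 15 brain libraries with a mean for each group. A gene had to reach 1 FPKM in 4 or more of these libraries, which 17216 did. Tests were two-sided, with Benjamini-Hochberg adjustment over all genes and calls under 0.05. The brain library with an eye profile, DD PFNA replicate 3, was left out and enters as an alternative. The test was tried on simulated data. Named are the members, their relatives, up to 3 called genes of smallest p for each list and comparison, the 10 genes most like the members, and genes said to be singled out. Likeness is a description. The alternatives were voom on recovered fragments, array weights, quantile normalization, median-ratio scaling, a replicate block, dropping the filter, a smaller pseudocount (0.1), fitting just the compared groups, adding the left-out library, and leaving out each library in turn. A gene of the list of pituitary factors is not reported here.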

Additional observations from a re-analysis of the deposited data

Results flagged for a closer look

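In 4 of 27 groups of 4 brain libraries a highest value stood far from the other 3. The rule flags about 1 in 20 groups of normally distributed values, and that rate does not hold near 0 fragments. For smtla and fshb the other libraries of the group were at 0, so any detected value was flagged. Nothing is read from the number of flags, and all 4 rest on few fragments. smtla was at 0.6937 FPKM in DD DMSO replicate 1 and at 0 in the other 3 DD DMSO brains. tshba was at 0.6254 FPKM in LD DMSO replicate 3, against 0 to 0.1062 in the rest of that group. fshb was at 0.1073 FPKM in DD DMSO replicate 4 and at 0.0838 in LD PFNA replicate 3, and at 0 in the other libraries of those groups.

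The library labelled brain DD PFNA replicate 3, which no comparison used, held more gonadotropin beta subunit transcript than the DMSO brains. It had 0.7673 FPKM of lhb from 11 fragments, where DMSO brains had 0 to 0.216, and 0.252 FPKM of fshb from 5 fragments, where DMSO brains had 0 to 0.1073. Both values lay within the range of the eye libraries, which reached 1.59 and 0.417 FPKM.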

How the results depend on the processing

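No value changed its direction while called. Of the hormone genes, smtlb for PFNA under LD and smtla and smtlb for DD against LD in DMSO brains were called under all 9 other settings and in all 15 runs that left a library out. The number of hormone genes called for PFNA under LD, 3, became 1 with no filter, with quantile normalization, in a fit of only the groups compared and with brain DD PFNA replicate 3, and ranged from 1 to 3 with a library left out. For PFNA under DD the 1 call became 0 with no filter, with the replicate block and with brain DD PFNA replicate 3 (0 to 1 with a library left out). It was also 0 in a fit of only the groups compared, where smtla missed the filter and was not tested. For DD against LD in PFNA brains 0 became 1 with array weights and with brain DD PFNA replicate 3, and 2 (smtla and gh1) in a fit of only the groups compared (0 to 1 with a library left out). It stayed at 2 for DD against LD in DMSO brains (2 to 2) and at 0 for the difference of the PFNA effects (0 to 0). Over all genes, array weights moved the calls from 1360 to 2113 for PFNA under LD and from 1658 to 3417 for DD against LD in PFNA brains. A fit of only the groups compared gave 417 in place of 1140 for PFNA under DD, 1125 in place of 2766 for DD against LD in DMSO brains and 2991 in PFNA brains, and was not possible for the difference of effects. With brain DD PFNA replicate 3 the calls were 405 and 719 for PFNA under LD and DD, and 1085 for DD against LD in DMSO brains. For the difference of effects the 1 call became 2 with a pseudocount of 0.1, 4 with no filter, 7 with median-ratio scaling (42.86% higher), 6 with quantile normalization (33.33% higher), 0 with the replicate block, 5 with array weights, 0 with brain DD PFNA replicate 3 and 11 with voom. With a library left out, calls ranged from 838 to 1542 and from 551 to 1388 for PFNA under LD and DD, from 1948 to 3141 and from 671 to 2023 for DD against LD with DMSO and PFNA, and from 0 to 20 for the difference. The causes were not tested. Same-numbered libraries showed no general likeness in their deviations (r from -0.30 to 0.27 over 21 pairs, 3 of 15 libraries best with their own number). These values cannot tell whether some numbers mark a shared clutch or batch, and the main fit used no pairing. With the replicate block prl under LD had an adjusted p of 0.0703 and smtla under DD of 0.0827. Among single hormone genes, 32 of the values with a library left out lost a call and 3 gained one, and under other settings 13 lost and 4 gained one. In fits of only the groups compared, genes that missed the filter have no value: tshba in all 4 comparisons, smtla and smtlb for PFNA under DD, and smtlb for DD against LD in PFNA brains. tshba also missed it in some of the runs with a library left out. Depth limits tshba, lhb and fshb, with at most 78 fragments each over 15 brains, and smtla in DD DMSO brains.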
